A study of Mus musculus with 18 samples.

Results

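The CXC chemokines described here are 9 genes, Cxcl1, Cxcl2, Cxcl3, Cxcl9, Cxcl10, Cxcl11, Cxcl13, Cxcl16 and Pf4, of the 13598 genes with a value in these libraries. They were chosen by symbol and matched to their mouse Ensembl genes. All 9 passed the filter on low values, Cxcl11 through its LPS-treated libraries alone and Cxcl9 through these and 1 mock-treated library. In GRCm38, 8 of the 9 genes lie on chromosome 5. Pf4 (ENSMUSG00000029373, 90772435 to 90773383), Cxcl3 (ENSMUSG00000029379, 90786103 to 90789600), Cxcl1 (ENSMUSG00000029380, 90891241 to 90893115) and Cxcl2 (ENSMUSG00000058427, 90903871 to 90905938) lie within a cluster on the plus strand. Cxcl9 (ENSMUSG00000029417, 92321347 to 92328079), Cxcl10 (ENSMUSG00000034855, 92346638 to 92348889) and Cxcl11 (ENSMUSG00000060183, 92359544 to 92365485) form a second cluster on the minus strand. Cxcl13 (ENSMUSG00000023078) spans 95956951 to 95961068 of the same chromosome, and Cxcl16 (ENSMUSG00000018920) lies on chromosome 11 from 70453983 to 70459984. GENCODE types Cxcl11 as a polymorphic pseudogene and the other 8 genes as protein coding.

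CXC chemokines are small proteins that direct leukocytes along concentration gradients through G protein-coupled receptors. Cxcl1, Cxcl2 and Cxcl3 carry a Glu-Leu-Arg (ELR) motif before the CXC cysteines, act on CXCR2 and draw neutrophils, and their genes are known targets of NF-κB. Cxcl9, Cxcl10 and Cxcl11 lack that motif, act on CXCR3 on activated T cells and NK cells, and are known as interferon-induced genes, Cxcl10 being also a target of NF-κB and IRF3. TLR4, the LPS receptor, signals through MyD88 mainly to NF-κB and through TRIF to IRF3 and type I interferon, so macrophages treated with LPS are a usual source of both classes.

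Peritoneal macrophages were taken from mice with the normal receptor (TLR4-WT) and from the TLR4-K730R and TLR4-K810R lines. Both are mutants on a C57BL/6 background, made with CRISPR/Cas9, in which a lysine of the TIR domain of Tlr4 is replaced by arginine at the named residue. Chimaeric founders were bred to C57BL/6, and the zygosity of the mice used is not stated. All mice received thioglycolate into the peritoneum, so every group holds elicited cells, and the age of the animals these cells came from is not stated. Cells of each genotype were left untreated (mock) or given LPS at 100 ng/ml for 6 h, giving 6 groups of 3 libraries, 18 in all. Nothing states which libraries come from separate mice, so p-values measure only the spread between these libraries. The comparisons ask whether the neutrophil-attracting and the interferon-driven chemokines respond alike to LPS when either lysine is replaced.

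The values are FPKM, fragments per kilobase of transcript scaled to the library's reads, which the authors gave for transcript events. First-exon and last-exon events were summed separately for each gene, and the higher sum was taken. FPKM are per length, so levels of different genes can be set side by side. Differences are in log2(FPKM + 1), which understates the change of genes near 1 FPKM, and are given with their standard error (SE) from a limma fit to the 9707 genes that reached 1 FPKM in 3 or more libraries. A gene was called at an adjusted p below 0.01. No read counts were used here, so the depth of the libraries, which held between 80071 and 90401 event rows each, is unknown. A gene listed at 0 need not be silent, since the macrophage integrin gene Itgam was listed at 0 in all 18 libraries. Of the 8 macrophage markers, 6 had a value in every library: Lyz2 ranged from 5944 to 13291 FPKM, Cd68 from 387 to 771, Csf1r from 277 to 538, Adgre1 from 148 to 271, Fcgr1 from 26.7 to 412 and Mertk from 5.03 to 32.2 FPKM. Cd14, the LPS co-receptor gene that macrophages are known for, was listed at 0 in all but 1 library, of LPS-treated TLR4-K810R (463 FPKM). Tlr4 lay between 9.31 and 14.2 FPKM in the mock-treated and between 4.18 and 5.72 FPKM in the LPS-treated libraries, which does not check a point mutation.

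Before the results, 2 libraries must be named, because the LPS comparisons of both chemokine classes rest on them. In replicate 3 of LPS-treated TLR4-WT the neutrophil-attracting members were higher and Cxcl10, Cxcl11 and Cxcl13 lower than in its 2 sister libraries. In replicate 3 of LPS-treated TLR4-K730R the pattern was the opposite. Across 9698 tested genes outside the family, taken as deviations from the mean of the 9 LPS-treated libraries, the TLR4-K730R library correlated with TLR4-WT libraries with r between -0.275 and 0.26 and with its own group with r between -0.15 and -0.10. The TLR4-WT library correlated with its own group with r between -0.22 and -0.09 and with the TLR4-K730R group with r between -0.275 and -0.07. With the TLR4-K810R group r was between -0.37 and -0.24 for the TLR4-K730R library and between -0.05 and -0.02 for the TLR4-WT library. These correlations are across genes, which are not independent replicates, and are a description. Nos2, the inducible nitric oxide synthase gene, was 406, 423 and 199 FPKM in LPS-treated TLR4-WT and 144, 123 and 441 FPKM in LPS-treated TLR4-K730R (replicates 1, 2 and 3). Retnla, a marker of alternatively activated macrophages, was likewise 25.3, 29.5 and 13.4 FPKM in LPS-treated TLR4-WT and 10.6, 13.6 and 30.2 FPKM in LPS-treated TLR4-K730R. Reg3b did not follow that pattern: it was 30.9, 25.8 and 29.5 FPKM in LPS-treated TLR4-K730R and 0.0928, 1.40 and 2.89 FPKM in LPS-treated TLR4-WT. The labels were kept as given. Counts of members called in the comparisons that these libraries enter are given also without both of them. That choice was made after the members' values were seen and partly because of them. Values without both libraries describe the other 16 libraries and are no independent test.

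Upstream sequence is shown for the 4 members whose LPS differences the results turn on, with matches to motifs of NF-κB and of interferon-stimulated genes. RefSeq promoters of GRCm38.p6 were found for 7 of the 9 members, not for Cxcl11 and Cxcl16. The bases from 250 to 31 before the RefSeq start are printed here 5′ to 3′ on the gene's strand, for Cxcl1 (chr5:90890995-90891214, plus strand), Cxcl2 (chr5:90903649-90903868, plus), Cxcl3 (chr5:90785851-90786070, plus) and Cxcl10 (chr5:92348920-92349139, minus). Capitals mark matches on either strand to GGGNNNTTCC, a κB-like motif, and to GAAANNGAAA, the core of an interferon-stimulated response element, where N is any base.
Cxcl1: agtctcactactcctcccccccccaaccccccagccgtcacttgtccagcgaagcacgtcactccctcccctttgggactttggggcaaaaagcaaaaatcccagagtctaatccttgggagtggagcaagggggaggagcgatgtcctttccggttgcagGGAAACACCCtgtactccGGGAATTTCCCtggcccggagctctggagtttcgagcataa
Cxcl2: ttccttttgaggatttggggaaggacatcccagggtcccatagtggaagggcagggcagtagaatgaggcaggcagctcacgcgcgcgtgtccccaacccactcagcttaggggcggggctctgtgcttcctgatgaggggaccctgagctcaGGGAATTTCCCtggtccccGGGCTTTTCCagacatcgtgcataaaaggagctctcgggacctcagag
Cxcl3: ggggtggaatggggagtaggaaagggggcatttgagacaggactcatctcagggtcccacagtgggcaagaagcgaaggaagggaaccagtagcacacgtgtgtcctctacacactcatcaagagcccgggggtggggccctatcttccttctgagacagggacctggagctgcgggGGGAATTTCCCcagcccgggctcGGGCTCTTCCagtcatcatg
Cxcl10: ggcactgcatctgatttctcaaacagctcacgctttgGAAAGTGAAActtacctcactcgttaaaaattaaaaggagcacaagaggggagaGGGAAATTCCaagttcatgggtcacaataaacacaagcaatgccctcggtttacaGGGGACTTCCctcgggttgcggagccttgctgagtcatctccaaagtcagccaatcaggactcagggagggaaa
The κB-like motif was found in 4.65% of all 32851 promoters of the table, searched over the 250 bases before the start, and in 4 of the 7 members, Cxcl1, Cxcl2, Cxcl3 and Cxcl10. The 3 neutrophil-attracting genes share the exact decamer GGGAATTTCC, picked out for that reason, which 0.0852% of all promoters held, starting 71 bases before the start in Cxcl1, 97 in Cxcl2 and 73 in Cxcl3. On the opposite strand of the same place the motif matches again, shifted by 1 base. Each of the 3 genes held another κB-like match, starting at 89 in Cxcl1, at 78 in Cxcl2 and at 50 in Cxcl3. Cxcl10 held κB-like matches at 159 and 104 and the GAAANNGAAA motif at 213, which 2.98% of all promoters held and none of the other 6 members. A match describes letters and is not a site of binding.

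At rest, Pf4 made up most of the CXC message. Pf4 encodes platelet factor 4, a chemokine of platelet granules that macrophages also transcribe. It accounted for 55.0% to 67.9% of the summed FPKM of the 9 members in the 9 mock-treated libraries, against 9.59% to 26.5% for Cxcl1, Cxcl2 and Cxcl3 together and 0.698% to 4.29% for Cxcl9, Cxcl10 and Cxcl11 together. In mock-treated TLR4-WT the mean levels ran from Pf4 (263 ± 18.8 FPKM, SD, n = 3) through Cxcl16 (77.9 ± 1.01), Cxcl2 (23.5 ± 1.25), Cxcl3 (13.2 ± 1.61), Cxcl13 (6.50 ± 0.237), Cxcl10 (4.43 ± 0.176) and Cxcl1 (3.68 ± 0.828) to Cxcl9 and Cxcl11. Neighbours in this order down to Cxcl9 did not overlap between libraries, apart from Cxcl10 (4.23, 4.48 and 4.57 FPKM) and Cxcl1 (3.48, 4.59 and 2.97 FPKM). Cxcl9 was listed at 0, 0.0594 and 0 FPKM and Cxcl11 at 0 in every mock-treated library of the 3 genotypes. After LPS the neutrophil-attracting members made up 42.3% to 85.6% of the family's summed FPKM, the interferon-driven members 4.49% to 40.7% and Pf4 3.27% to 11.3%.

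**Figure D1:**
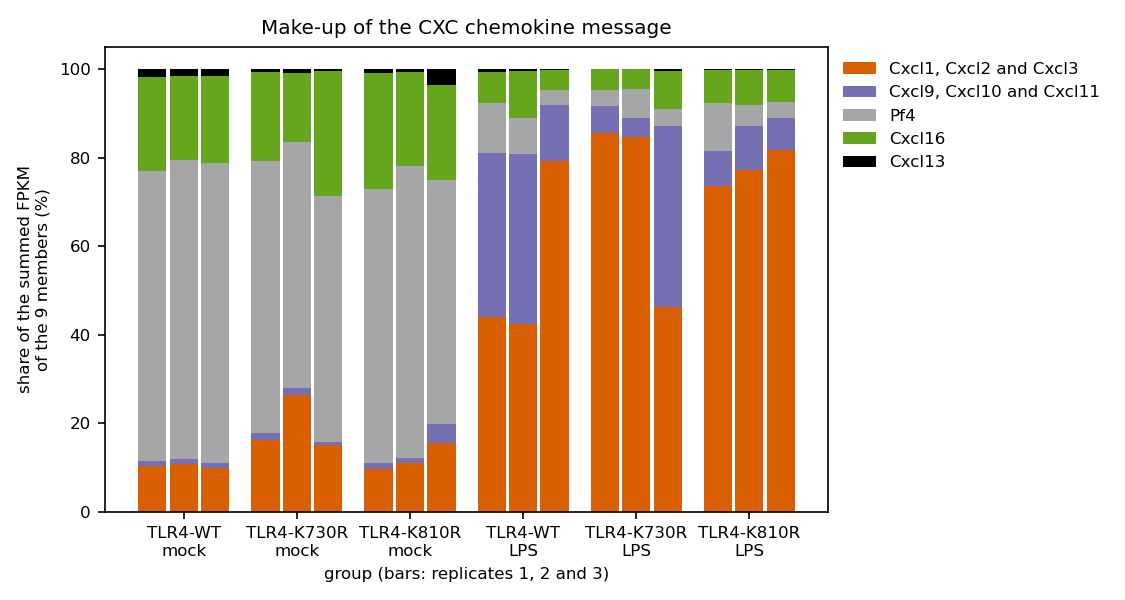
Share of the summed FPKM of the 9 members (vertical axis, percent) for each of the 18 libraries, as stacked bars in groups of replicates 1, 2 and 3. Pf4 and Cxcl16 make up most of each mock-treated bar, and Cxcl1, Cxcl2 and Cxcl3 between 42.3% and 85.6% of each LPS-treated bar. Replicate 3 of LPS-treated TLR4-WT (79.3%) and of LPS-treated TLR4-K730R (46.4%) differ from the other bars of their groups.

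LPS raised the 3 neutrophil-attracting chemokines in each genotype. Cxcl1, a CXCR2 ligand also known as KC, went from 3.48, 4.59 and 2.97 FPKM in mock-treated TLR4-WT to 137, 119 and 397 FPKM after LPS. In TLR4-K730R it went from 4.23, 4.93 and 4.80 FPKM to 515, 598 and 134 FPKM, and in TLR4-K810R from 5.82, 7.09 and 9.04 FPKM to 323, 277 and 482 FPKM. The LPS-treated and mock-treated libraries were far apart in each genotype, while the LPS-treated libraries of the 3 genotypes overlapped. The difference in log2(FPKM + 1) was 5.34 ± 0.48 (SE) in TLR4-WT, 5.94 ± 0.48 in TLR4-K730R cells and 5.42 ± 0.48 in TLR4-K810R.

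Cxcl2, the CXCR2 ligand also known as MIP-2, had the highest mock-treated level of the class. It was 22.1, 24.2 and 24.3 FPKM in mock-treated TLR4-WT and 355, 370 and 836 FPKM after LPS. The TLR4-K730R values were 29.8, 31.0 and 25.7 FPKM without and 1208, 1384 and 393 FPKM with LPS, and the TLR4-K810R values 12.7, 13.2 and 15.6 FPKM without and 522, 440 and 722 FPKM with LPS. Cxcl2 thus had the smallest LPS difference of the 3 genes on the log2 scale, 4.29 ± 0.38 in TLR4-WT, 4.87 ± 0.38 in TLR4-K730R cells and 5.22 ± 0.38 in TLR4-K810R.

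Cxcl3, a further ligand of the same receptor, overtook Cxcl2 after LPS. It rose from 12.5, 15.02 and 12.01 FPKM to 553, 519 and 1676 FPKM in TLR4-WT, and from 13.8, 15.4 and 15.5 FPKM to 2058, 2457 and 523 FPKM in TLR4-K730R. In TLR4-K810R it rose from 4.37, 7.88 and 5.36 FPKM to 953, 811 and 1224 FPKM. Per library, Cxcl3 was 0.344 to 0.621 times Cxcl2 without LPS and 1.33 to 2.01 times Cxcl2 with LPS, so Cxcl3 was below Cxcl2 in 9 of 9 mock-treated and above it in 9 of 9 LPS-treated libraries. The log2 differences were 5.80 ± 0.48 in TLR4-WT, 6.44 ± 0.48 in TLR4-K730R cells and 7.19 ± 0.48 in TLR4-K810R. Cxcl2 and Cxcl3 transcripts share an identical run of 157 bases, and 5.84% of the stretches of 50 bases in Cxcl2 and 3.51% of those in Cxcl3 are common to both. How the authors assigned reads from such stretches is not given in the sources used here.

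Cxcl10 had the largest LPS difference of the family in TLR4-WT. This interferon-driven ligand of CXCR3 went from 4.23, 4.48 and 4.57 FPKM to 865, 907 and 450 FPKM in TLR4-WT. In TLR4-K730R it went from 3.84, 2.85 and 2.15 FPKM to 266, 233 and 913 FPKM, and in TLR4-K810R from 3.08, 2.38 and 5.19 FPKM to 192, 192 and 208 FPKM. The LPS-treated TLR4-K810R libraries were close together and lay below all LPS-treated libraries of the other genotypes. The log2 difference was 7.03 ± 0.40 in TLR4-WT, 6.63 ± 0.40 in TLR4-K730R cells and 5.49 ± 0.40 in TLR4-K810R.

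Cxcl9 and Cxcl11, the other CXCR3 ligands, stayed at low levels after LPS. Cxcl9 was 12.05, 5.02 and 11.7 FPKM in LPS-treated TLR4-WT, 1.91, 1.72 and 5.64 FPKM in TLR4-K730R cells and 2.53, 2.87 and 3.41 FPKM in TLR4-K810R. Without LPS it was listed at 0.627, 0 and 0 FPKM in TLR4-K730R and at 0.382, 0.271 and 3.04 FPKM in TLR4-K810R, where replicate 3 reached the LPS-treated range. That library, like replicate 1 of mock-treated TLR4-K730R, lists a first exon of Cxcl9 and no last exon. Cxcl11 was 3.997, 3.85 and 1.45 FPKM in LPS-treated TLR4-WT, 0.323, 0.512 and 3.35 FPKM in TLR4-K730R cells and 0.274, 0.557 and 0.844 FPKM in TLR4-K810R. With all mock-treated libraries listed at 0, no fold is given for Cxcl11, and every LPS-treated library lay above them.

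Of the 7 members that reached the filter in mock-treated libraries as well, 5 were called higher after LPS in each genotype, Cxcl1, Cxcl2, Cxcl3, Cxcl10 and Cxcl16. The share of all tested genes called higher was 10.4% in TLR4-WT, 9.32% in TLR4-K730R cells and 9.08% in TLR4-K810R. The same 5 members lay above every mock-treated library of their genotype, as did 15.5%, 13.8% and 14.6% of all tested genes. Without the 2 libraries named above, these 5 were also called in TLR4-WT and TLR4-K730R, with 10% and 8.85% of genes called higher. Cxcl16 in TLR4-WT lost its call when last exons alone were used (1.13, adjusted p = 0.0201, limma). Cxcl9 and Cxcl11 had to be higher after LPS to pass the filter, so their levels after LPS and at rest are given as a description, with no test. The median difference of all tested genes was -0.28 after LPS in TLR4-WT, -0.36 in TLR4-K730R cells and -0.26 in TLR4-K810R, which median-of-ratios scaling brought to -0.01, -0.04 and -0.03. With that scaling more genes were called higher, 1496, 1497 and 1196 of 9645, against 1012, 905 and 881 of 9707 without it.

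**Figure D2:**
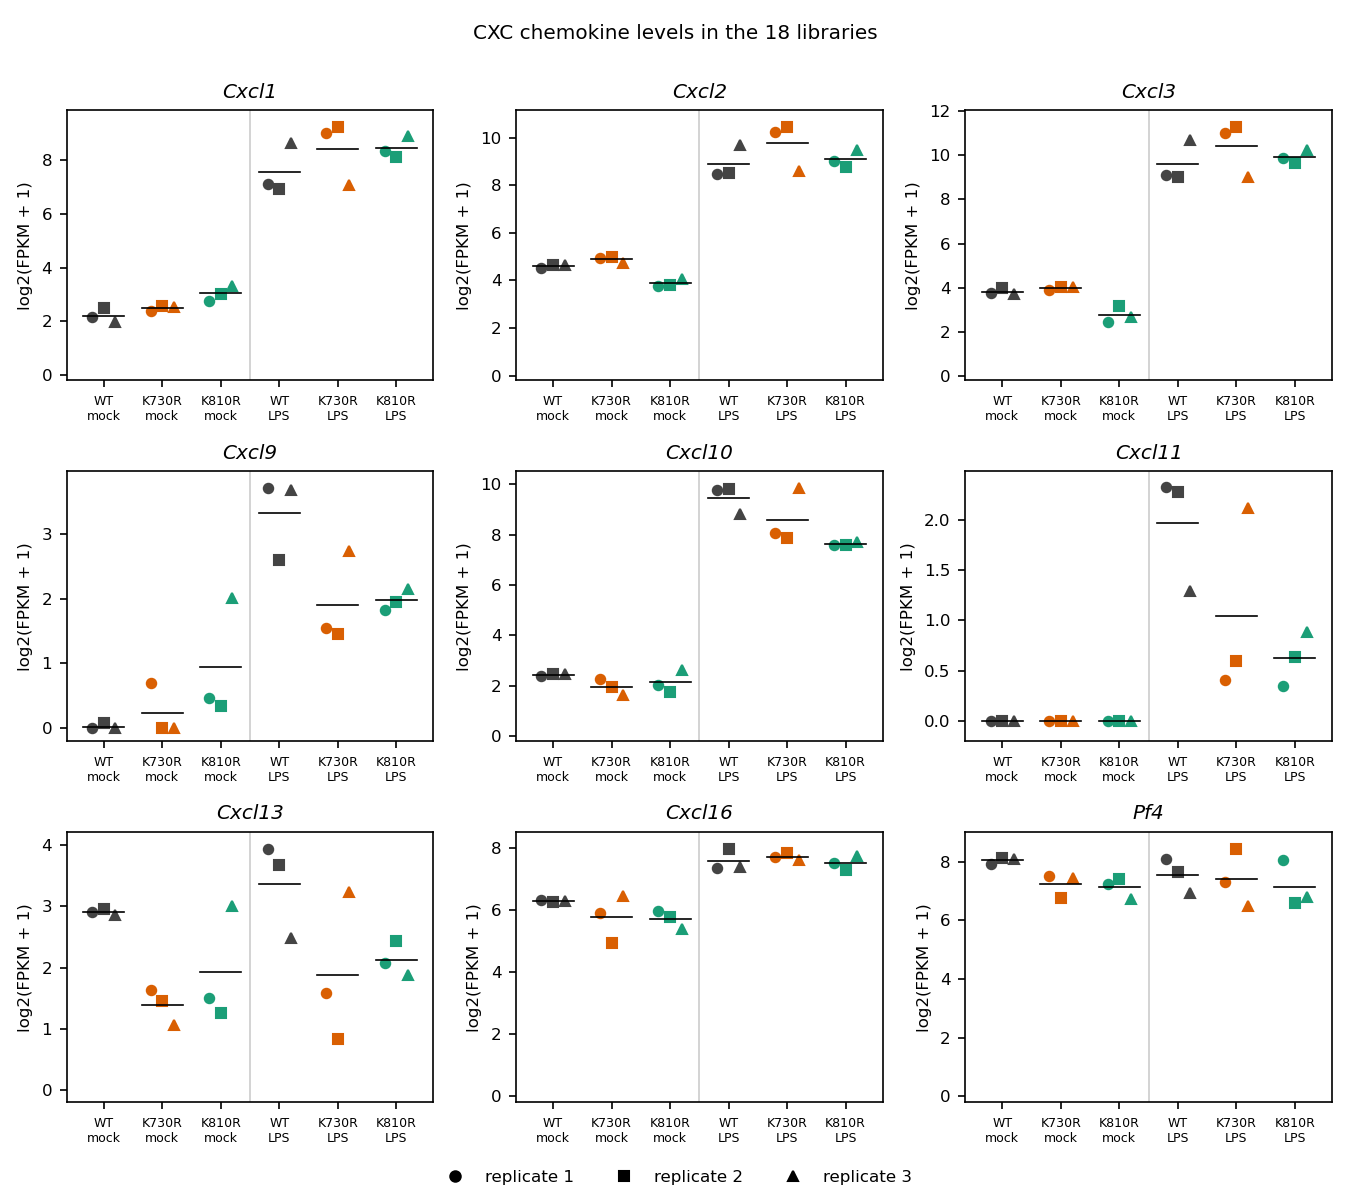
Level of each member (vertical axis, log2 of FPKM + 1) in the 18 libraries, by genotype and treatment, with a symbol for each replicate and a line at the mean of each group. After LPS, replicate 3 of TLR4-WT (Cxcl3 1676 FPKM, Cxcl10 450 FPKM) and replicate 3 of TLR4-K730R (Cxcl3 523 FPKM, Cxcl10 913 FPKM) lie apart from the other libraries of their groups.

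Cxcl16 was the only one of the 3 remaining members called after LPS. It encodes a transmembrane chemokine that binds CXCR6 and oxidized lipoprotein and is shed by ADAM10. The TLR4-WT values were 78.8, 76.8 and 78.1 FPKM without and 165, 250 and 169 FPKM with LPS, a log2 difference of 1.28 ± 0.28. The values in TLR4-K730R were 59.3, 30.1 and 86.8 FPKM without and 208, 232 and 196 FPKM with LPS (1.95 ± 0.28), and those in TLR4-K810R 62.7, 54.5 and 41.1 FPKM without and 186, 158 and 215 FPKM with LPS (1.81 ± 0.28). No LPS-treated library overlapped a mock-treated one in any genotype. Among the members, Cxcl16 had the most listed events, with last exons of 575 to 1462 bases, and the longest took 2.39% to 72.8% of its last-exon FPKM in mock-treated and 3.45% to 43.3% in LPS-treated libraries. Adam10 was called lower after LPS in each genotype, by -1.19 ± 0.16, -1.79 ± 0.16 and -1.50 ± 0.16 on the log2 scale in TLR4-WT, TLR4-K730R and TLR4-K810R.

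Pf4 and Cxcl13 were not called after LPS in any genotype. Pf4 was 241, 276 and 271 FPKM in mock-treated and 269, 198 and 120 FPKM in LPS-treated TLR4-WT, with a log2 difference of -0.50 ± 0.44. In TLR4-K730R the values were 182, 108 and 171 FPKM without and 158, 341 and 89.1 FPKM with LPS, and in TLR4-K810R 148, 168 and 105 FPKM without and 263, 94.2 and 111 FPKM with LPS. The treated and untreated libraries of Pf4 overlapped in each genotype, and its 95% intervals reach from -1.44 to 0.44, from -0.77 to 1.11 and from -0.92 to 0.96. Without the 2 libraries named above, the Pf4 difference was -0.18 ± 0.41 in TLR4-WT and 0.63 ± 0.41 in TLR4-K730R, called in neither. The platelet markers beside it summed to between 1.06 and 4.34 FPKM, with 5 of 9 at 0 in all libraries (Gp1ba, Gp1bb, Gp9, Tubb1 and Clec1b) and Ppbp, the neighbouring platelet chemokine gene, at 0.797 to 2.72 FPKM.

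Cxcl13, the CXCR5 ligand that draws B cells and is made by peritoneal macrophages, was called in no comparison of genotypes with all libraries. It was 6.49, 6.74 and 6.27 FPKM in mock-treated TLR4-WT and 14.3, 11.7 and 4.58 FPKM after LPS. In TLR4-K730R it was 2.10, 1.75 and 1.10 FPKM without and 1.99, 0.781 and 8.47 FPKM with LPS, and in TLR4-K810R 1.83, 1.39 and 7.05 FPKM without and 3.20, 4.41 and 2.69 FPKM with LPS. The mock-treated TLR4-K730R libraries lay below all mock-treated TLR4-WT libraries, and in TLR4-K810R 2 of 3 did (log2 differences -1.52 ± 0.53 and -0.98 ± 0.53, adjusted p = 0.457 and 0.445, limma). Of 6 markers of resident peritoneal macrophages 5 had a value, Serpinb2 being at 0, and their sum was 16.6 to 20.6 FPKM in mock-treated TLR4-WT, 8.87 to 12.2 in TLR4-K730R cells and 12.1, 10.4 and 20.7 in TLR4-K810R. After LPS that sum was 34.0, 36.9 and 17.4 FPKM in TLR4-WT, 16.4, 17.5 and 26.2 FPKM in TLR4-K730R cells and 14.9, 5.88 and 11.9 FPKM in TLR4-K810R. Within that last group the sum was lowest in the library where Cxcl13 was highest, and Gata6, one of the markers, was called higher in mock-treated TLR4-K810R than in TLR4-WT (1.64 ± 0.28). The mast cell markers, 5 of 6 with a value and Fcer1a at 0, summed to 4.70 to 5.25 FPKM in mock-treated TLR4-WT, 0.494 to 2.58 in TLR4-K730R cells and 0.797 to 2.64 in TLR4-K810R. After LPS they summed to 1.47 to 4.61 FPKM in TLR4-WT, 0.504 to 2.51 in TLR4-K730R cells and 0.672 to 2.09 in TLR4-K810R. In bulk RNA, fewer cells of a type and less RNA per cell cannot be told apart, and the part of these markers in the values of Cxcl13 was not tested.

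Without LPS, no member was called between either mutant and TLR4-WT by limma. The TLR4-K730R comparison called 0.268% of all tested genes and the TLR4-K810R comparison 1.58%. At an unadjusted p under 0.05 there was 1 member in TLR4-K730R, Cxcl13, with 7.70% of genes. In TLR4-K810R there were 2, Cxcl3 and Cxcl9, with 14.1% of genes. Both mutants are compared with the same TLR4-WT libraries. Pf4 lay below all TLR4-WT libraries in each mutant, with log2 differences of -0.81 ± 0.44 in TLR4-K730R cells and -0.92 ± 0.44 in TLR4-K810R. Over all tested genes, 7.45% lay wholly below and 8.91% wholly above TLR4-WT in TLR4-K730R, against 3 members below (Cxcl10, Cxcl13 and Pf4) and 1 above (Cxcl2). In TLR4-K810R 6.64% lay below and 14.2% above, against 4 members below (Cxcl2, Cxcl3, Cxcl16 and Pf4) and 2 above (Cxcl1 and Cxcl9). The Cxcl9 values behind these TLR4-K810R counts were low, at 0.382, 0.271 and 3.04 FPKM against 0, 0.0594 and 0 FPKM in TLR4-WT. The value of 3.04 FPKM came from a first exon with no last exon listed, and with last exons alone the groups overlapped.

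In mock-treated TLR4-K810R the neutrophil-attracting members had differences of both signs. Cxcl1 was higher than in every mock-treated TLR4-WT library, with a log2 difference of 0.83 ± 0.48, while Cxcl2 (-0.73 ± 0.38) and Cxcl3 (-1.07 ± 0.48) were lower than in every one, none of them called (adjusted p = 0.483, 0.428 and 0.332, limma). The ratio of Cxcl1 to Cxcl2 in a library was 0.457 to 0.580 in mock-treated TLR4-K810R, 0.122 to 0.190 in TLR4-WT and 0.142 to 0.187 in TLR4-K730R. After LPS it was 0.619 to 0.668 in TLR4-K810R, 0.322 to 0.475 in TLR4-WT and 0.341 to 0.432 in TLR4-K730R. The TLR4-K810R ratios thus did not overlap those of the other genotypes in either treatment, the 2 libraries named above included. This ratio was chosen after its values were seen, so it is a description with no test.

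Markers of other cells differed between the mock-treated groups beside these values. The mesothelium and fibroblast markers summed to 120 to 289 FPKM in mock-treated TLR4-K810R, 32.6 to 50.4 in TLR4-WT and 60.8 to 71.7 in TLR4-K730R, and 4 of 8 tested (Wt1, Col1a1, Col1a2 and Dcn) were called higher in TLR4-K810R. After LPS they summed to 103 to 125 FPKM in TLR4-K810R, 43.7 to 145 in TLR4-WT and 47.8 to 48.9 in TLR4-K730R. Of the 10, Pdgfra was at 0 in all libraries. The intestinal epithelium markers, none of 10 at 0 in all libraries, summed to 0.118 to 0.670 FPKM in mock-treated TLR4-WT, 52.5 to 79.7 in TLR4-K730R cells and 61.8 to 139 in TLR4-K810R, with 4 of 8 tested (Reg3b, Reg3g, Lypd8 and Muc3) called higher in TLR4-K730R and the same 4 and Fabp1 in TLR4-K810R. Their sums after LPS were 0.0928 to 15.7, 58.5 to 65.9 and 0.127 to 24.5 FPKM in the same order. The neutrophil markers, with Elane at 0, summed to 72.6 to 99.7 FPKM without and 223 to 295 FPKM with LPS. S100a8 reached 239 FPKM, Csf3r 67.4 and Mmp8 20.6 FPKM, and the other markers at most 6.38 FPKM (Camp). S100a8 and Camp were called higher after LPS in each genotype and Retnlg lower in TLR4-WT (-1.58 ± 0.25). Between genotypes S100a9 was called higher in LPS-treated TLR4-K810R (1.42 ± 0.22) and Retnlg lower in mock-treated TLR4-K730R (-1.46 ± 0.25), both against TLR4-WT. S100a9 reached at most 2.23 FPKM and Retnlg at most 2.67 FPKM in any library. The part of these markers in the chemokine values was not tested.

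After LPS, the neutrophil-attracting members were higher and the interferon-driven members lower in the mean of each mutant. No member was called with all 18 libraries in the fit without library weights. Limma called 0% of all tested genes in TLR4-K730R against TLR4-WT, and 4 members had an unadjusted p under 0.05 (Cxcl2, Cxcl9, Cxcl10 and Cxcl13), with 7.69% of genes. It called 0.134% of genes in TLR4-K810R against TLR4-WT, and 3 members had an unadjusted p under 0.05 (Cxcl9, Cxcl10 and Cxcl13), with 21.8% of genes. The median difference of all genes was -0.04 in TLR4-K730R cells and 0.11 in TLR4-K810R, and median-of-ratios scaling brought the latter to -0.02. These comparisons share the TLR4-WT libraries. Cxcl11 reached 1 FPKM only in LPS-treated TLR4-WT and in 1 LPS-treated TLR4-K730R library, so it passed the filter through the group where it was high, and counts of members between genotypes and of response differences leave it out.

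In TLR4-K730R the class difference hung on the libraries that stood apart. With all libraries the log2 difference to TLR4-WT was 0.89 ± 0.48 for Cxcl1, 0.86 ± 0.38 for Cxcl2 and 0.82 ± 0.48 for Cxcl3, and -1.41 ± 0.43 for Cxcl9, -0.88 ± 0.40 for Cxcl10 and -0.92 ± 0.36 for Cxcl11. No member lay wholly above or below TLR4-WT, against 3.32% of all tested genes that lay above and 7.54% below. Without replicate 3 of both groups, 5 members were called, against 1.66% of genes: Cxcl1 (2.11 ± 0.24), Cxcl2 (1.83 ± 0.19) and Cxcl3 (2.07 ± 0.22) higher, and Cxcl10 (-1.83 ± 0.23) and Cxcl13 (-2.60 ± 0.45) lower. Cxcl9 was then -1.66 ± 0.48 and not called, and Cxcl11 was -1.80 ± 0.19. Since the left-out libraries were those with the opposite pattern in these genes, the larger differences are not independent of that choice.

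In TLR4-K810R the differences of Cxcl9 and Cxcl10 to TLR4-WT were below 0 with or without those libraries, and neither was called with all of them unless libraries were weighted. With all libraries the log2 difference to TLR4-WT was -1.83 ± 0.40 for Cxcl10 (adjusted p = 0.0334, limma) and -1.35 ± 0.43 for Cxcl9 (0.0958). With library weights Cxcl10 was called (-2.00, adjusted p = 0.00247, limma), beside 366 of 9707 genes. Cxcl11 was -1.34 ± 0.36, given as a description. Cxcl9, Cxcl10 and Cxcl13 (-1.23 ± 0.53) lay below every TLR4-WT library, as did Cxcl11 and 7.89% of all tested genes, and no member lay above every one, as 17.4% of genes did. Cxcl10 passed the threshold when replicate 3 of LPS-treated TLR4-WT alone was left out (-2.16, adjusted p = 0.00758, limma). That library had the lowest Cxcl10 of its group and was singled out partly for it. Without both libraries Cxcl10 was -2.16 ± 0.21, Cxcl11 -1.68 ± 0.18 and Cxcl9 -1.18 ± 0.44, and 2 members (Cxcl1 and Cxcl10) were called, against 5.94% of genes. The calls with libraries left out follow that choice and are no independent test. The neutrophil-attracting members overlapped between the groups with all libraries, at 0.91 ± 0.48 for Cxcl1, 0.20 ± 0.38 for Cxcl2 and 0.32 ± 0.48 for Cxcl3. Without both libraries they were 1.45 ± 0.22, 0.60 ± 0.17 and 0.87 ± 0.20, of which Cxcl1 was called. Pf4 and Cxcl16 were not called in either mutant, with 95% intervals with all libraries from -1.34 to 0.54 for Pf4 and from -0.64 to 0.54 for Cxcl16 in TLR4-K810R.

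**Figure D3:**
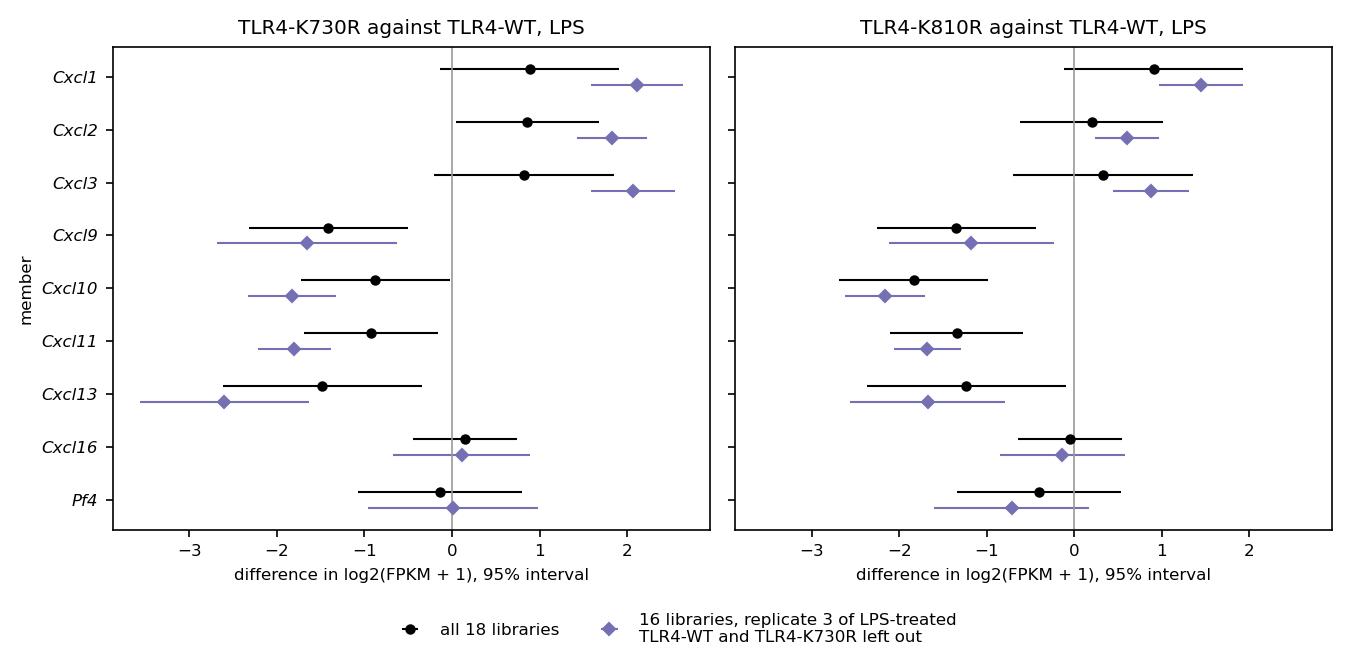
Difference of each mutant from TLR4-WT after LPS (horizontal axis, log2 of FPKM + 1, with 95% intervals from limma) for the 9 members, with all 18 libraries (circles) and with the 16 left when replicate 3 of LPS-treated TLR4-WT and TLR4-K730R are left out (diamonds). Cxcl10 in TLR4-K810R is -1.83 with all libraries and -2.16 with 16, and Cxcl1 in TLR4-K730R moves from 0.89 to 2.11.

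The balance of both classes within a library showed the same grouping. Cxcl10 divided by the sum of Cxcl1, Cxcl2 and Cxcl3 was 0.828, 0.899 and 0.155 in LPS-treated TLR4-WT, 0.0704, 0.0526 and 0.869 in TLR4-K730R cells and 0.107, 0.126 and 0.0857 in TLR4-K810R. The TLR4-K810R libraries lay below all TLR4-WT libraries, whereas each of the other groups spanned low and high values. Without LPS the ratio was 0.102 to 0.117 in TLR4-WT, 0.0467 to 0.0803 in TLR4-K730R cells and 0.0845 to 0.173 in TLR4-K810R. The summed neutrophil-attracting FPKM after LPS was 1045, 1009 and 2908 in TLR4-WT, 3782, 4439 and 1050 in TLR4-K730R cells and 1797, 1528 and 2429 in TLR4-K810R.

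**Figure D4:**
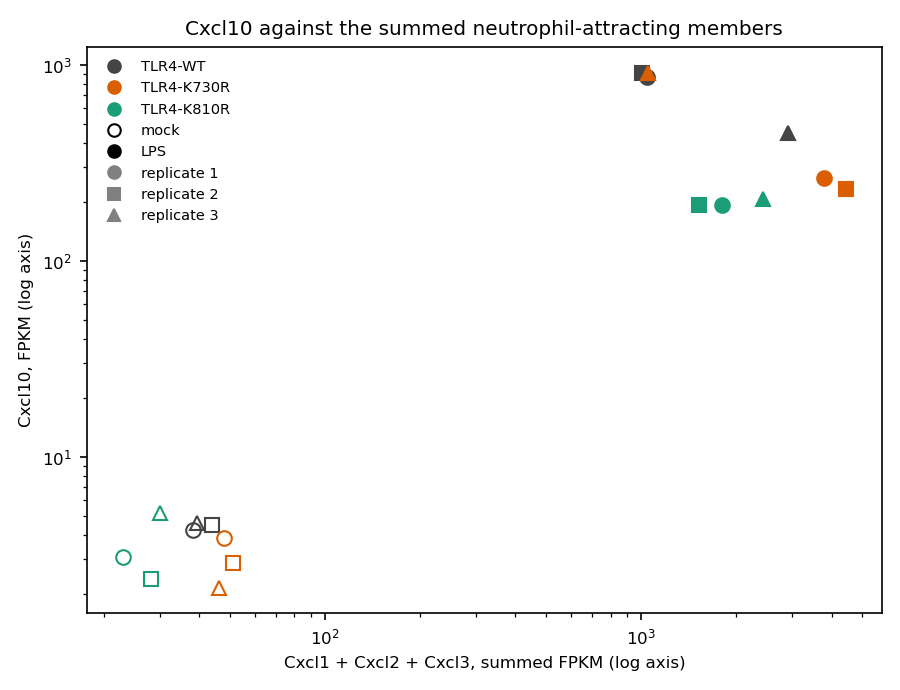
Cxcl10 (vertical axis, FPKM, log axis) against the summed FPKM of Cxcl1, Cxcl2 and Cxcl3 (horizontal axis, log axis) in the 18 libraries, coloured by genotype, with open symbols for mock and filled symbols for LPS. Replicates 1 and 2 of LPS-treated TLR4-WT and replicate 3 of LPS-treated TLR4-K730R lie together at 1009 to 1050 summed FPKM and 865 to 913 FPKM of Cxcl10, and the 3 LPS-treated TLR4-K810R libraries lie lowest in Cxcl10 of the 9 LPS-treated ones.

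The difference between the LPS responses of a mutant and TLR4-WT was not called for any member with all libraries. Cxcl9, which passed the filter mainly through its LPS-treated values, is left out of the counts that follow. In TLR4-K730R limma called 0.0412% of all tested genes, and no counted member had an unadjusted p under 0.05, as 7.02% of genes had. In TLR4-K810R it called 0.124% of genes, and 1 member, Cxcl10 (-1.53 ± 0.57), had an unadjusted p under 0.05, with 13.2% of genes. As a description, the response difference of Cxcl9 was -1.62 ± 0.60 in TLR4-K730R and -2.26 ± 0.60 in TLR4-K810R. Cxcl9 was listed at 0, 0.0594 and 0 FPKM in mock-treated TLR4-WT. Its TLR4-K810R value was -1.59 with last exons alone and -1.73 without replicate 3 of mock-treated TLR4-K810R, which listed a first exon only. The responses of Cxcl2 (0.93 ± 0.54) and Cxcl3 (1.40 ± 0.68) were larger in TLR4-K810R and not called (adjusted p = 0.496 and 0.403, limma). Without the 2 libraries, 2 members were called in TLR4-K730R, against 0.309% of genes, Cxcl2 (1.55 ± 0.24) and Cxcl3 (1.90 ± 0.28), both larger. In TLR4-K810R 3 were called, against 1.17% of genes, with Cxcl2 (1.33 ± 0.23) and Cxcl3 (1.94 ± 0.27) larger and Cxcl10 (-1.86 ± 0.29) smaller. The calls without the 2 libraries follow a choice made partly from these genes' values and are no independent test.

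Between the mutants, no member was called with all libraries by limma. Without LPS 0.0824% of all tested genes were called, and Cxcl2 (-1.01 ± 0.38) and Cxcl3 (-1.24 ± 0.48), both lower in every TLR4-K810R library, were the 2 members with an unadjusted p under 0.05, with 10.4% of genes. Over all tested genes, 6.04% lay below and 12.6% above in every TLR4-K810R library, Cxcl1 being the 1 member above. With LPS 0.0618% of genes were called, and Cxcl10 (-0.96 ± 0.40) was the 1 member under 0.05, with 18.8% of genes. It was lower in every TLR4-K810R library than in any TLR4-K730R library, as were 4.44% of genes, and no member was higher in every one, as 21.3% of genes were. Median-of-ratios scaling moved the median of all genes in this comparison from 0.13 to -0.03 and turned the uncalled differences of Cxcl1 (0.02) and Cxcl9 (0.07) to -0.19 and -0.09. Without the 2 libraries Cxcl2 (-1.23 ± 0.17) was called lower in LPS-treated TLR4-K810R, against 0.237% of genes, and Cxcl10 was -0.33 ± 0.21. That call likewise follows a choice made after the values were seen.

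The genes around the chemokines were read from lists of ligands, receptors, proteases and regulators. Of 8 other CXC and related ligands, 4 were tested, and Cxcl5, a further neutrophil-attracting ligand, was called higher after LPS in each genotype, with 3.16 ± 0.38 in TLR4-WT, 2.74 ± 0.38 in TLR4-K730R cells and 2.41 ± 0.38 in TLR4-K810R. Its levels were 0.505 to 2.36 FPKM without and 6.41 to 26.6 FPKM with LPS. Cxcl14 was called lower in TLR4-WT (-1.15 ± 0.32) and TLR4-K730R (-1.46 ± 0.32), and Cxcl12, the CXCR4 ligand of stromal cells, in TLR4-K730R (-1.46 ± 0.25). None of 8 receptors was tested, their sum staying between 0 and 1.09 FPKM in every library, with Cxcr3 and Cxcr4 listed at 0. Of 6 proteases that process CXC chemokines, 5 were tested, and Mmp9 was called higher in each genotype, with 1.08 ± 0.27 in TLR4-WT, 2.24 ± 0.27 in TLR4-K730R cells and 2.91 ± 0.27 in TLR4-K810R.

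Most tested regulators of both classes were called higher after LPS. Of 11 NF-κB subunits and inhibitors 10 were tested, and 8 were called higher in each genotype and none lower, where 10.4%, 9.32% and 9.08% of all tested genes were called higher. In TLR4-WT the largest differences were those of Nfkb2 (3.12 ± 0.16), Nfkbia (2.60 ± 0.10) and Tnfaip3 (2.38 ± 0.10), a subunit and 2 feedback inhibitors of the pathway. Of 13 genes of interferon receptors and signalling 10 were tested, with 7 called higher and 1 lower in TLR4-WT, 6 and 1 in TLR4-K730R cells and 7 and 1 in TLR4-K810R. Usp18 (3.52 ± 0.18) and Irf7 (2.95 ± 0.36) led them in TLR4-WT, and Ifngr1 was the gene called lower (-1.53 ± 0.32). Of all 9707 tested genes, 2316 were called lower in TLR4-WT, 2568 in TLR4-K730R cells and 1916 in TLR4-K810R. With median-of-ratios scaling 1370, 1300 and 1126 of 9645 genes were called lower. Among 4 tested of 7 mRNA decay and stability factors, Zc3h12a, an RNase that degrades chemokine messages, was called higher in each genotype (2.18 ± 0.17 in TLR4-WT).

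The sole list genes of these regulators called in a mutant comparison were Irf7 and Usp18, both lower without LPS. Irf7, an interferon-induced transcription factor, was 74.6 to 140 FPKM in mock-treated TLR4-WT, 6.86 to 28.7 in TLR4-K730R cells and 13.0 to 18.3 in TLR4-K810R. The log2 differences were -3.03 ± 0.36 and -2.75 ± 0.36. Usp18, which removes ISG15 and restrains interferon signalling, was 16.6 to 23.1 FPKM, 6.00 to 6.24 FPKM and 3.39 to 4.58 FPKM in the same order. After LPS Irf7 overlapped between the groups, at 778 to 890, 680 to 930 and 649 to 782 FPKM, and was not called. Usp18 was then 193 to 288 FPKM in TLR4-WT, 200.01 to 299.76 FPKM in TLR4-K730R cells and 147 to 158 FPKM in TLR4-K810R, where it lay below every TLR4-WT library (-0.69 ± 0.18, adjusted p = 0.0524, limma). Cxcl10 without LPS was lower than in TLR4-WT in every TLR4-K730R library (-0.48 ± 0.40) and overlapped in TLR4-K810R (-0.30 ± 0.40), and was called in neither.

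The genes nearest in pattern to each member over the 18 libraries were found by the root mean square difference of centred log2 values, where 0 would be the same pattern. Csf3 (0.47) and Il1a (0.67) were nearest to Cxcl1, Il12a (0.36) and Csf3 (0.44) to Cxcl2, and Il1a (0.65) and Tarm1 (0.71) to Cxcl3. Nos2 (0.47) and Ms4a4c (0.48) were nearest to Cxcl10, Mt2 (0.47) and Fcgr4 (0.54) to Cxcl9, and Lhx2 (0.20) and I830077J02Rik (0.24) to Cxcl11. Cma1 (0.55) and Cd180 (0.55) were nearest to Cxcl13, Ttc39c (0.31) and Adar (0.32) to Cxcl16, and Celf1 (0.44) and Gt(ROSA)26Sor (0.47) to Pf4. The members themselves vary by 3.36 (SD of log2 values) for Cxcl10 and by 0.60 for Pf4, so a small distance means less for a gene that hardly varies. Distances between members of unlike spread cannot be small, so the pairs of the family are not ranked.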

How the data were processed

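RNA-seq was made from peritoneal macrophages with a column kit and an Illumina platform by a service provider. The authors deposited FPKM values per transcript event for each library, with Ensembl gene numbers. The aligner and counting program are not given in the sources used here, and the build in the submitters' processing notes is a human one, while the coordinates match mouse GRCm38. First-exon and last-exon events lying off the strand or span of the gene they name were left out, a loss of 4.61% to 9.19% of their FPKM. The 9707 genes reaching 1 FPKM in 3 or more libraries were tested as log2(FPKM + 1) with limma 3.58.1 in R 4.3.3, with an intensity trend, a single fit for the 6 groups and p-values adjusted after Benjamini and Hochberg over all of them. The test was tried on simulated data. Values were computed with Python 3.11.15. The members, lists, rule for named genes and tests were chosen with earlier results of these data known. Named are the 9 members, list genes called between genotypes or, in the ligand, protease and regulator lists, among up to 3 of the largest LPS differences in TLR4-WT, and the 2 genes nearest in pattern to each member. One gene with a large LPS difference that this rule names is not reported here. Alternatives covered the pseudocount, filters, scaling, variance trend, library weights, gene value, threshold, replicate block and left-out libraries.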

Additional observations from a re-analysis of the deposited data

Results flagged for a closer look

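A first exon numbered as Pf4 but lying outside the gene was listed after LPS only. It spans 522 bases of chromosome 5, from 90771639 to 90772160 of GRCm38, and ends 274 bases before Pf4. It was listed in 6 of 9 LPS-treated libraries and in 0 of 9 mock-treated ones, and was not used in the value of Pf4. In TLR4-WT it was 65.4 FPKM in replicate 2 and 115 FPKM in replicate 3. The TLR4-K730R values were 117 FPKM in replicate 1 and 85.4 FPKM in replicate 3, and the TLR4-K810R values 91.4 FPKM in replicate 2 and 107 FPKM in replicate 3. The value of Pf4 itself came from its last exon in all 18 libraries. Groups of 3 libraries were not tested for single outlying values.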

How the results depend on the processing

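The 39 member differences with an unadjusted p under 0.05 (limma) kept their sign in all 749 repeats under other settings, with 725 on the same side of the threshold. They were picked by their p in these same libraries, so a kept sign is no separate support. Among 57 others, none called as reported, 53 of 1131 repeats changed sign and 10 were called. The count of members called in TLR4-K810R against TLR4-WT after LPS, 0 as reported beside 13 of 9707 genes, was 2 with library weights (366 genes; 1 without Cxcl11), 1 at a threshold of 0.05 (213 genes) and 0 to 1 when single libraries were left out, with 1 and 283 genes without replicate 3 of LPS-treated TLR4-WT. With replicate 3 of the TLR4-WT and TLR4-K730R LPS groups left out, a choice made after seeing the data, it was 3 (577 genes), that of TLR4-K730R against TLR4-WT after LPS 6 (161 genes), those of the LPS responses 3 in TLR4-K730R (30 genes) and 4 in TLR4-K810R (114 genes), and that of TLR4-K810R against TLR4-K730R after LPS 1 (23 genes). Without Cxcl11, which passed the filter through the group where it was high, the first 4 of these counts were 2, 5, 2 and 3. The cause of these changes was not tested. Replicate numbers did not pair the libraries, with 0 of 45 same-numbered pairs correlating above 0.1 (r from -0.32 to 0.10), and the replicate block left the counts at 7, 6 and 5 for LPS in TLR4-WT, TLR4-K730R and TLR4-K810R, beside 968, 861 and 836 genes called higher, and at 0 between genotypes. Without Cxcl9 and Cxcl11, which passed the filter through their LPS-treated values, the LPS counts were 5 in each genotype. The depth of the libraries is unknown.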
